A study of Rattus norvegicus with 6 samples.

Results

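Transcripts of 8 genes that mark B lymphocytes and the follicles they form, Cd79a, Cd79b, Ms4a1, Pax5, Cd22, Blk, Ebf1 and Cxcr5, were examined in the rat colon. The 3 S.LEW congenic rats are called C1, C2 and C3, and the 3 S rats S1, S2 and S3, and colon RNA of each rat was read on 1 single-color Agilent array. The S rat is the inbred Dahl salt-sensitive strain SS/Jr, and the S.LEW(10)x12x2x3x5 congenic strain has a small piece of a Lewis (LEW) chromosome in an otherwise S genome. All 6 rats were males on a low salt (0.3% NaCl) diet, had been given the colon carcinogen azoxymethane (AOM) at 15 mg/kg in 2 weekly injections from 6 weeks of age, and were 30 weeks old at harvest. No rat without AOM was measured, so every difference below is between strains that both had the carcinogen, and all congenic rats are of 1 strain. The RNA was from whole colon tissue of rats in which tumors had been induced. Neither the labels nor the methods say whether a tumor or a lymphoid follicle lay in the tissue used.

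Probes were assigned to genes through the RefSeq accession printed with each spot, and 18005 of the 30367 probes on the array matched 15168 genes. Of the 8 genes, 6 were matched, each by 1 probe. No probe was matched to Cd79a or Ms4a1, which were not analysed here. Of the 6 matched genes, Cxcr5, Ebf1, Cd22 and Pax5 had a signal well above background on 3 or more of the 6 arrays and were tested, and Cd79b and Blk were well above background on 2 arrays and were not. The term well above background is the call that the scanner software gives to a spot.

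B cells read antigen through an immunoglobulin that signals by way of the Cd79a and Cd79b chains, the kinase Blk is among the first to act on those chains, and Cd22 is a sialic acid binding receptor that restrains them. Ebf1 and Pax5 are transcription factors that set and hold the B cell program, and Ms4a1 encodes CD20. Cxcr5 is the receptor that draws B cells and follicular helper T cells towards the chemokine Cxcl13 in lymphoid follicles. In the intestine, B cells gather in isolated lymphoid follicles and larger patches of the wall, where a germinal center can form in which they divide, mutate their antibody genes and are selected. None of the 8 genes is particular to the germinal center, so other genes that germinal center B cells use, some of them also active in other cells, were read beside them.

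Promoter sequences of 3 of the 8 genes were at hand in RefSeq (assembly GRCr8), each running from 250 bases before the annotated start to 50 bases after it. They are shown because Cd22 and Ebf1 were high in the same rats and because Cd79a belongs to the same program. The letters CCCNNGGG (Ebf1 type), ATTTGCAT (octamer), AGGAAGT (PU.1 type) and CAGGTG (E-box) were searched on both strands, and matches are in capitals.
Cd79a, chr1:89621210-89621509, plus strand: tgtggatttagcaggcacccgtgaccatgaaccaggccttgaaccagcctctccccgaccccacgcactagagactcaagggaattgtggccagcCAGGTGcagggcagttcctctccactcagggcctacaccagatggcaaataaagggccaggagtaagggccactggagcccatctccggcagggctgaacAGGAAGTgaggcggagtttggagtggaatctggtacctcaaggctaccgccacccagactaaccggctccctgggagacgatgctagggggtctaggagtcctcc
Cd22, chr1:95259681-95259980, minus strand: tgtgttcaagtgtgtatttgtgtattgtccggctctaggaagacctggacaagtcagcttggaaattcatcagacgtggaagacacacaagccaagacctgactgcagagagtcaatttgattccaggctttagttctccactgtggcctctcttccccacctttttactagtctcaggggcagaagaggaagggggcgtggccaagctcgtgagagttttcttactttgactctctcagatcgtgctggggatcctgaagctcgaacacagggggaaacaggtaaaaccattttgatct
Ebf1, chr10:29601671-29601970, plus strand: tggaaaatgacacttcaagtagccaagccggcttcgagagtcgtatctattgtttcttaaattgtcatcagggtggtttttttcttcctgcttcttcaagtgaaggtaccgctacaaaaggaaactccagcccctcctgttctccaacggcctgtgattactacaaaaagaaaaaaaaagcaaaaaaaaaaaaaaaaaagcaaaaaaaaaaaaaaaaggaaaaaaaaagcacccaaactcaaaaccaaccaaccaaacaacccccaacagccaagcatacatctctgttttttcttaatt

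The Cd79a window held CAGGTG, which 18.8% of 33469 rat promoter windows of this length hold, and AGGAAGT, which 8.41% hold. It held neither of the other motifs, and the Cd22 and Ebf1 windows held none of the 4. CCCNNGGG occurs in 12.4% and ATTTGCAT in 1.78% of the windows. The Cd22 and Ebf1 windows lie within the annotated span of their own gene, so another annotated transcript of each gene starts farther upstream.

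The arrays did not split by strain. Across all probes with a value on every array, array S2 had a Pearson correlation of 0.971 to 0.983 with the 3 congenic arrays, against 0.933 with S1 and 0.955 with S3. Values of the measured B cell genes are therefore given with S2 and without it. So are counts of the B cell lists together and of the germinal center, follicle ligand, T cell and macrophage lists. Differences of single genes in those lists are given with all rats. The share of spots well above background was 86.3% on S1, 87.6% on S3 and 73.8% to 83.2% on the other arrays, and no spot was saturated. Median intensity before normalization was 594 on S1 and 445 on S3, against 214 to 291 on the other arrays. The part of these array differences in the B cell values was not tested. C1 and the 3 S arrays shared 1 scan, and C2 and C3 another.

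Of the 6 measured genes, 5 were high in the colons of S1 and S3 and low in S2 and in all 3 congenic rats. These were Cd79b, Blk, Cd22, Ebf1 and Cxcr5, and Pax5 was at one level in every rat. Over the 15165 genes with a probe and a value on every array, 23.5% were higher in S1 and S3 than in the other 4 rats. Values are log2 signals after quantile normalization, a step that gives all arrays the same distribution, and they compare rats for a given probe, not probes with each other. Because the RNA is from whole tissue, fewer B cells and less of a transcript per cell cannot be told apart.

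**Figure D1:**
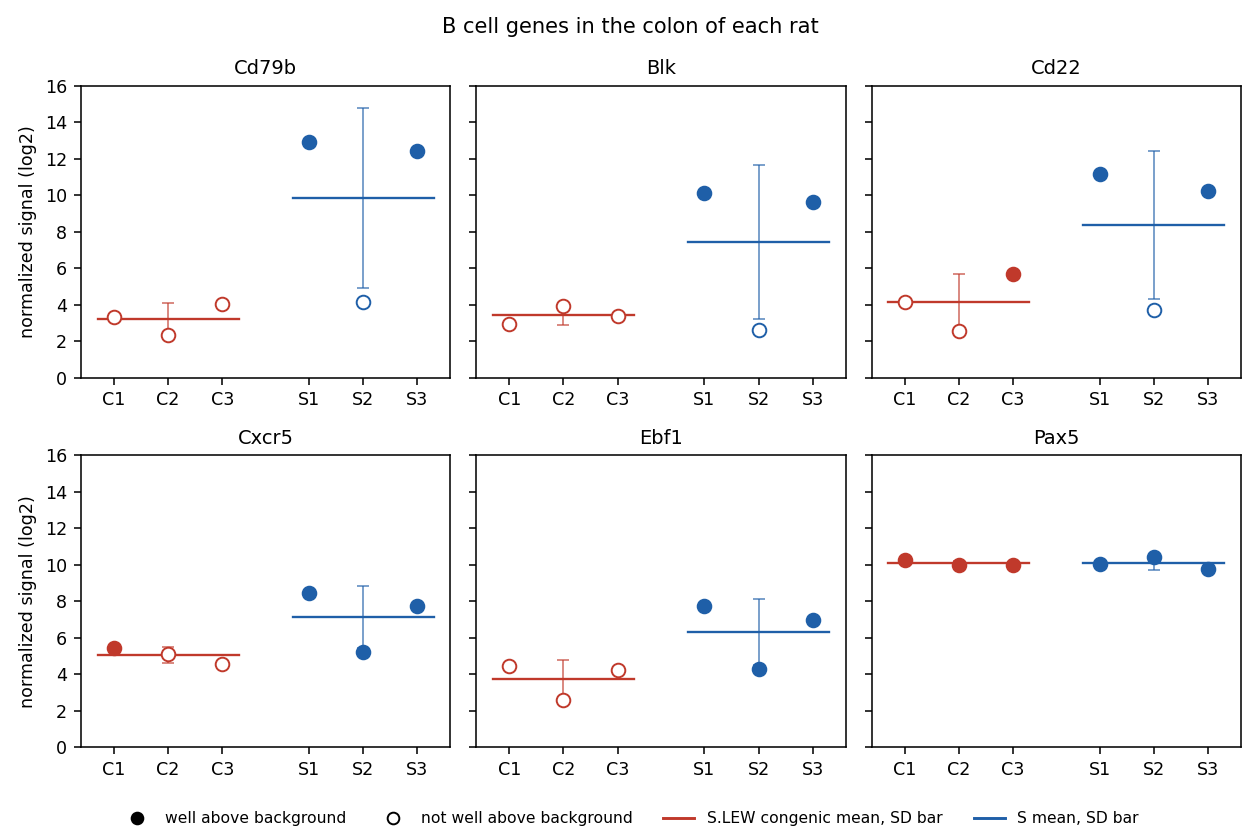
Log2 normalized signal (y axis) of the 6 measured genes in each rat, with S.LEW congenic rats and S rats side by side. Filled points are well above background, open points are not, the horizontal lines are strain means and the bars SD (n = 3). S1 and S3 lie above the other 4 rats for every gene except Pax5.

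Cd79b, a signaling chain of the B cell receptor, had the largest strain difference of the 6. Its log2 signal was 12.93 in S1 and 12.44 in S3, 4.17 in S2, and 3.31, 2.35 and 4.05 in C1, C2 and C3. Only S1 and S3 were well above background, so S2 and the congenic rats have no order among themselves. With the congenic signal taken as no lower than the dimmest probe well above background, the congenic level of Cd79b was at least 28.5-fold lower than that of the S rats, where the measured means were 3.24 ± 0.85 for the congenic rats and 9.85 ± 4.92 for the S rats (SD, n = 3 each). That bound was 203-fold without S2, 9.77-fold without S1 and 11.6-fold without S3. S2 entered the S mean at its measured value, although it was not well above background. Only the bound without S2 therefore rests on detected S signals alone.

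Blk, a Src family kinase of the B cell receptor, had the same form. Its log2 signal was 10.13 in S1 and 9.62 in S3 and 2.60 in S2, and 2.93, 3.93 and 3.37 in C1, C2 and C3. S1 and S3 alone were well above background, and S2 was nominally the lowest rat. Blk was at least 5.39-fold lower in congenic than in S rats (means 3.41 ± 0.50 and 7.45 ± 4.20, SD, n = 3 each). The bound was 28.9-fold without S2, 2.13-fold without S1 and 2.54-fold without S3. Being well above background on S1 and S3 alone was seen for 3.26% of the 30367 probes.

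Cd22, the inhibitory co-receptor, was read at 11.16 in S1, 10.26 in S3 and 3.69 in S2, and at 4.15, 2.58 and 5.69 in C1, C2 and C3. S2 lay between C1 and C2, and C3 was the only congenic array well above background. The log2 difference, congenic minus S, was -4.23 (SE 2.0, limma p = 0.0759, adjusted p = 0.409, exact permutation p = 0.3, where 0.1 is the smallest that 3 rats against 3 can give), with a 95% interval from -9.05 to 0.59. Without S2 the difference was -6.57 (SE 0.91, limma adjusted p = 0.0124), and without S1 it was -2.84.

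Ebf1, an early determinant of the B lineage, was read at 7.72 in S1, 6.96 in S3 and 4.28 in S2, and at 4.47, 2.57 and 4.22 in C1, C2 and C3. All 3 S arrays and no congenic array were well above background, although C1 was nominally above S2. Ebf1 was at least 2.43-fold lower in congenic than in S rats, with measured means of 3.75 ± 1.03 and 6.32 ± 1.80 (SD, n = 3 each). The fitted log2 difference was -2.57 (SE 0.96, limma p = 0.0348, adjusted p = 0.361), and the exact permutation p was 0.2. The bound was 4.93-fold without S2 (limma adjusted p = 0.02), 1.5-fold without S1 and 1.95-fold without S3.

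Cxcr5, the follicle homing receptor, was read at 8.45 in S1, 7.75 in S3 and 5.24 in S2, and at 5.42, 5.14 and 4.59 in C1, C2 and C3. S2 lay between C1 and C2, and of the congenic arrays C1 alone was well above background. The log2 difference was -2.09 (SE 0.81, limma p = 0.0392, adjusted p = 0.371), with a 95% interval from -4.05 to -0.14, and the exact permutation p was 0.2. Without S2 it was -3.05 (SE 0.33, limma adjusted p = 0.0075), and without S1 it was -1.44.

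Pax5, which works with Ebf1 to fix B cell identity, differed from the others. Its log2 signal was 10.26, 10.00 and 9.98 in C1, C2 and C3 and 10.04, 10.46 and 9.77 in S1, S2 and S3, and every array was well above background. The strains overlapped, with S2 highest and S3 lowest. The log2 difference was -0.02 (SE 0.23, limma adjusted p = 0.978), with a 95% interval from -0.58 to 0.55, and its sign was positive without S2 (0.17), without C2 (0.02) and without C3 (0.03). The Pax5 probe was well above background also on C1, C2, C3 and S2, where Cd79b and Blk were not. Whether this single probe reads the Pax5 transcript of B cells was not tested.

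At the cut-offs of the methods, an unadjusted p under 0.05 and a difference of 2-fold or more, Ebf1 and Cxcr5 were called lower in congenic rats (2 of the 4 tested genes) and 0 were called higher. Over all 23974 probes tested, 2.35% were called lower and 3.23% higher. No probe had an adjusted p under 0.05 (limma, 3108 probes at an unadjusted p under 0.05), and the methods' t-test called 0 of the 4 genes. Ebf1 passed the filter only through the S arrays, so neither the count nor the median of the 4 genes, -2.33 on the log2 scale against 0.01 over all probes tested, is support for a difference.

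Without S2, 3 of the 4 tested genes (Cd22, Ebf1 and Cxcr5) had an adjusted p under 0.05 in limma and were lower in the congenic rats. In that setting 10.7% of all tested probes were lower and 12.5% higher at the same threshold, and 7.2% were lower at the cut-offs of the methods. S2 was left out after its values had been seen, so this describes S1 and S3 against the congenic rats and is no test of strain. With any other rat left out, 0 or 1 of the 4 genes was called at the cut-offs of the methods. In the scan that held C1 and the 3 S arrays, C1 was below S1 and S3 for Cd79b, Blk, Cd22, Ebf1 and Cxcr5, while it was nominally above S2 for Blk, Cd22, Ebf1 and Cxcr5. Of these genes, C1 was well above background for Cxcr5 alone, whose log2 difference between C1 and the S mean of that scan was -1.72, and for Pax5 that difference was 0.16.

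**Figure D2:**
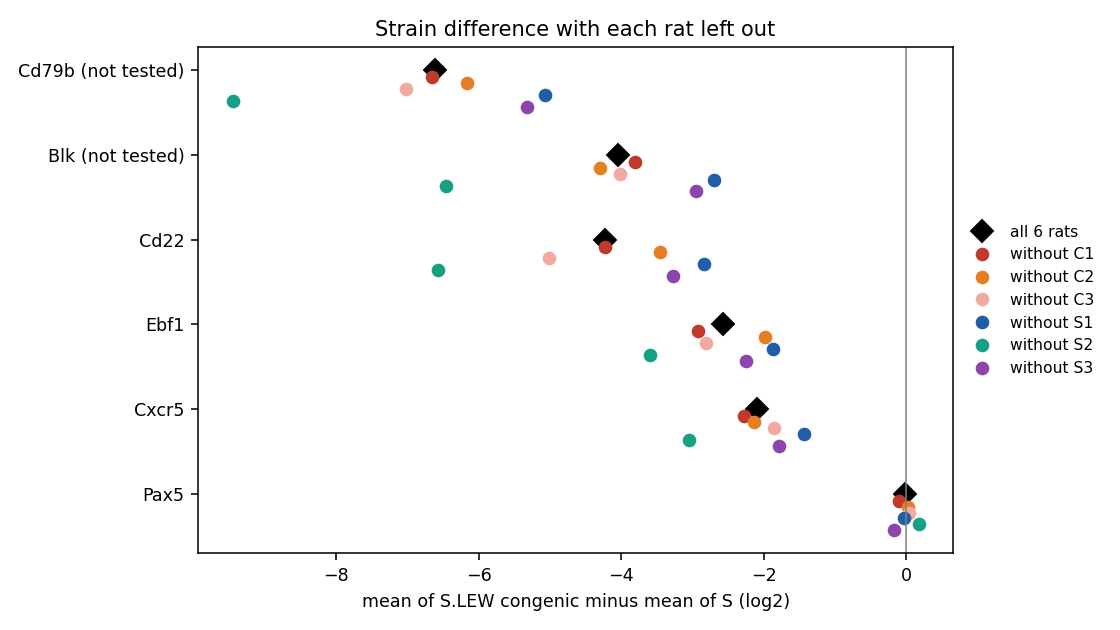
Log2 difference, S.LEW congenic minus S (x axis), of the measured genes with all rats and with 1 rat left out at a time. Leaving out S2 gave the largest differences for Cd79b, Blk, Cd22, Ebf1 and Cxcr5, and Pax5 stayed near 0 in every setting shown.

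The wider B cell lists had the same form. In 3 lists of B cell genes, of receptor signaling, transcription factors, and survival and activation receptors, 44 of 51 genes had a probe, and 37 of the 44 were higher in both S1 and S3 than in all other rats, against the 23.5% of all genes given above. Of the 36 tested genes, 14 were called lower and 0 higher in congenic rats, with a median log2 difference of -2.29. For comparison, 2.64% of the 12397 genes tested were called lower and 3.79% higher when each was read by its brightest probe. Without S2, 28 of the 36 were called lower, against 8.27% of all genes. Cd72 passed the filter only through the S arrays, and the lists were chosen with earlier results of these data known. These counts and the median are therefore no support for a difference.

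Among receptor signaling genes and co-receptors, 6 of 15 tested genes were called lower. The log2 difference was -3.81 for the tetraspanin Cd37 and -3.67 for Pik3cd, the lymphocyte PI3 kinase subunit. The inhibitory receptor Cd72, also called, was well above background on no congenic array, so it passed the filter through the S arrays alone, and it was at least 15.8-fold lower in congenic than in S rats. Cr2, the complement receptor of B cells and follicular dendritic cells, was 12.13 in S1, 11.61 in S3 and 3.20 in S2, and 2.63 to 3.05 in the congenic rats. S1 and S3 alone were well above background. With S2 at its measured value in the S mean, Cr2 was at least 15.6-fold lower in congenic than in S rats.

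Among transcription factors, 6 of 11 tested genes were called lower. Bach2, which holds B cells short of the plasma cell state, was 10.68, 6.51 and 9.62 in S1, S2 and S3 against 4.83, 4.62 and 5.13 in C1, C2 and C3. These strains did not overlap, and the log2 difference was -4.08 (SE 1.01, limma adjusted p = 0.269). Non-overlap with the congenic rats lower was seen for 5.29% of all tested probes with a value on every array. The next were Pou2af1, a co-activator of octamer factors, at -3.80, Ciita, the activator of MHC class II genes, at -3.70, and Ikzf3 at -3.13, which was not called.

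Among survival and activation receptors, 2 of 10 tested genes, Ccr6 (-4.02) and Cd83 (-2.84), were called lower. Ccr6 is the receptor for Ccl20 and Cd83 an activation marker of B cells and dendritic cells. The IgM receptor Fcmr (-3.85) and the lymphotoxin subunit Ltb (-2.77) had differences of similar size that were not called.

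Of 15 germinal center genes, 13 had a probe and 9 were tested, of which 5 (Bcl6, Mef2b, Lmo2, S1pr2 and Stap1) were called lower and 0 higher, with a median of -1.03. Over all tested genes, 2.64% were called lower. Without S2, 6 of the 9 were called lower, against 8.27% of all genes, and with any other rat left out 1 or 2 were. Bcl6, the repressor that germinal center B cells and follicular helper T cells need, was 11.47, 9.59 and 11.03 in S1, S2 and S3 and 8.44, 8.57 and 8.36 in C1, C2 and C3. All S rats were above all congenic rats, with S2 between, and the log2 difference was -2.24 (SE 0.48, limma adjusted p = 0.231).

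The other called germinal center genes were Mef2b, a transcription factor that drives Bcl6 (-2.93), Lmo2 (-2.12), S1pr2, which confines B cells to the germinal center (-1.10), and Stap1, an adaptor of the B cell receptor pathway (-1.03). Mef2b, S1pr2 and Stap1, like Bcl6, had all S rats above all congenic rats, which held for 5.29% of all tested probes with a value on every array. Among the S rats Stap1 had another order, with S2 at 10.32 and S3 at 10.33 above S1 at 9.77. Its congenic values were 9.25, 9.32 and 8.76. Il21r, Klhl6 and Mybl1, of the same list, were well above background on S1 and S3 alone and were not tested. Ung, a uracil glycosylase of DNA repair, had a difference of 0.11 (limma adjusted p = 0.871).

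**Figure D3:**
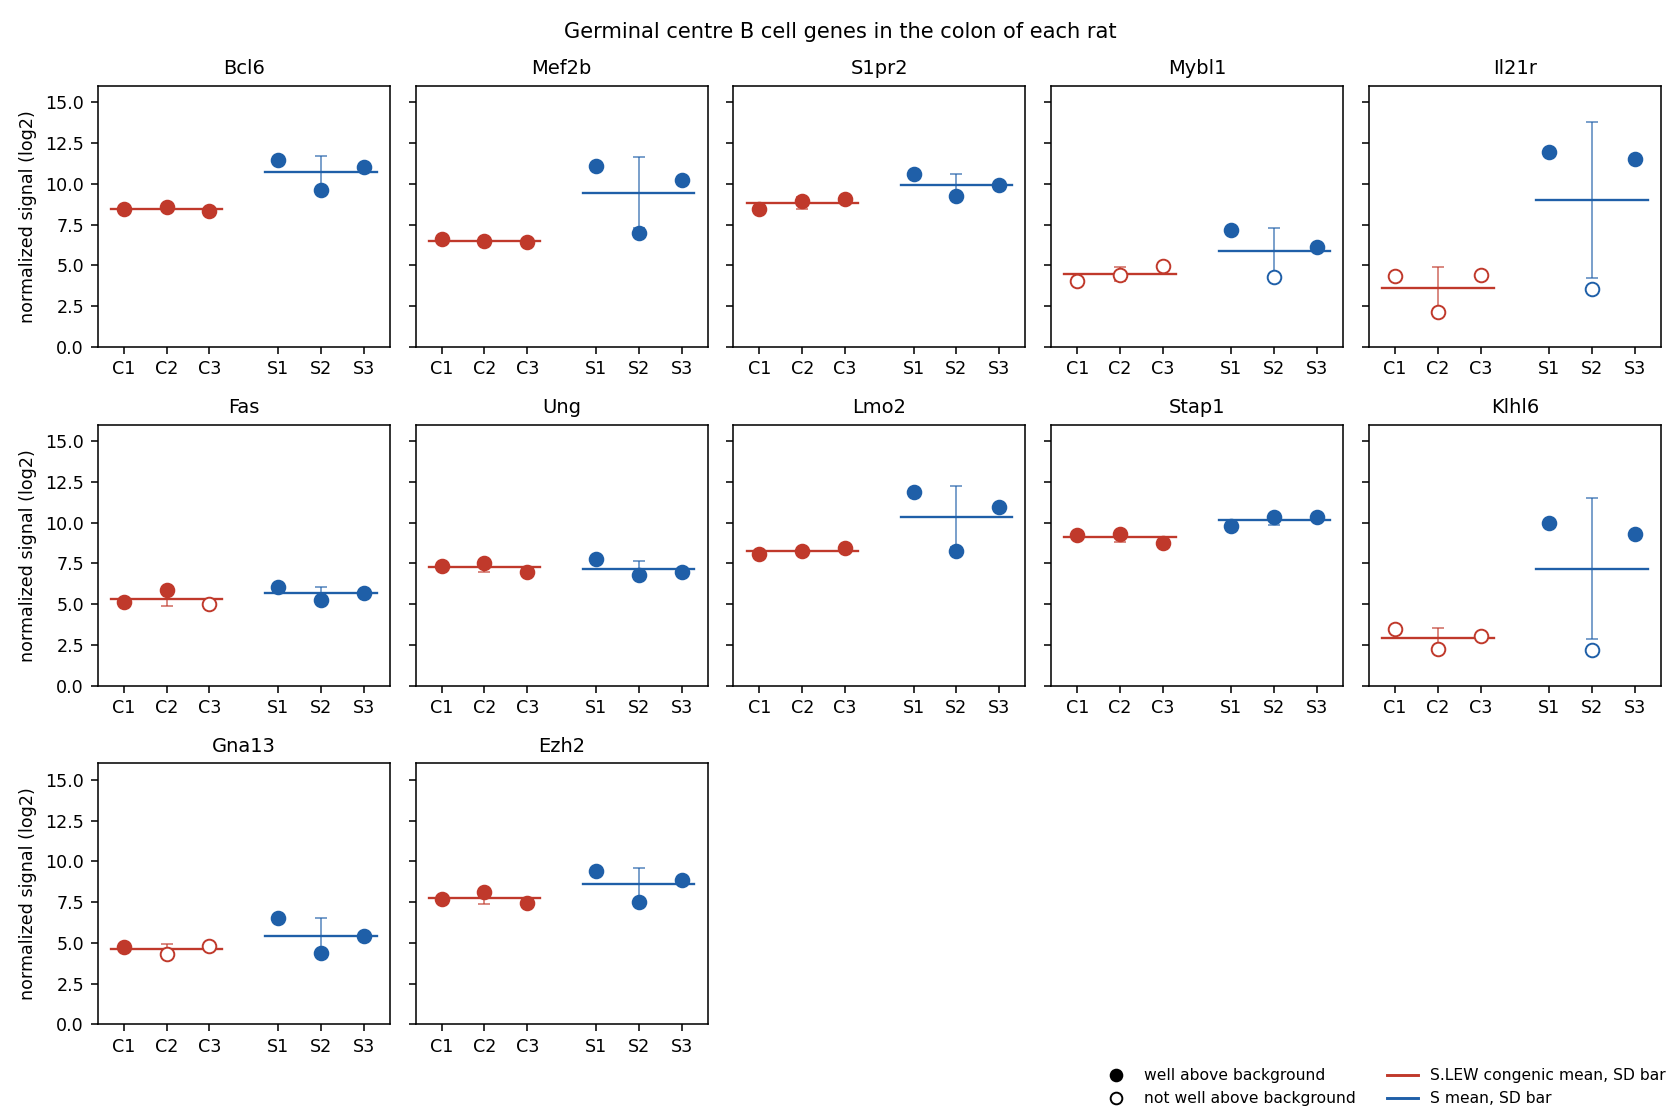
Log2 normalized signal (y axis) of measured germinal center genes in each rat, with filled points well above background and open points not, and strain means with SD bars. For Bcl6 the 3 S rats lie above the 3 congenic rats, whereas for Lmo2 S2, at 8.25, lies within the congenic range.

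Of the ligands and stromal genes of follicles, 4 of 12 tested genes (Ccl19, Madcam1, Ccl21 and Icam1) were called lower and 0 higher. Over all tested genes, 2.64% were called lower and 3.79% higher. Of the 12 differences 11 were negative, and the receptor Ltbr (0.78) was higher in all congenic than in all S rats. Without S2, 9 were called lower and 1 higher, against 8.27% of all genes called lower. Ccl19 was well above background on 1 congenic array. Cxcl13, the ligand of Cxcr5, was 13.84 in S1, 12.28 in S3 and 5.21 in S2, and 6.35, 6.70 and 8.17 in C1, C2 and C3. S2 was the lowest rat for the ligand while it lay within the congenic range for the receptor, and the difference of -3.37 (SE 2.15, limma adjusted p = 0.495) was not called. Ccl21, a chemokine of T cell zones and lymphatic vessels, was 14.35, 12.59 and 14.34 in S1, S2 and S3 and 11.03, 10.08 and 12.09 in C1, C2 and C3, with no overlap. For Fdcsp, a secreted product of follicular dendritic cells, no array gave a signal well above background.

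The genes whose profile over the 6 arrays was nearest to the mean of the 4 tested genes were Emb, Laptm5, Shisa8, Bst1, Gimap1, Hcls1, Clu and Ncf1. Their root mean square differences from that mean were 0.19 to 0.31 in log2 units. Laptm5, Hcls1 and Ncf1 are expressed across blood cells, and Bst1 and Gimap1 in lymphocytes among others. Of the 4 genes that make up the mean, Ebf1 was at place 13 and Cxcr5 at place 89 among the 12397 genes ranked. Cd22, whose signal differed more between rats than the mean did, and Pax5, whose signal differed less, were at places 8148 and 7022.

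Markers of other leukocytes moved with the B cell genes. Of 17 T cell markers, all with a probe, 16 were higher in S1 and S3 than in the other rats, 6 were well above background on those arrays alone, and 5 of 11 tested were called lower in the congenic rats. Across the array these shares were, in the same order, 23.5% of genes, 3.26% of probes and 2.64% of tested genes. Without S2, 10 of the 11 were called lower, against 8.27% of all genes. The summed normalized signal of the T cell markers on the linear scale was 2120 to 2640 in the congenic rats, 25400 in S1, 3150 in S2 and 25000 in S3. All 7 measured pan-leukocyte markers were higher in S1 and S3, and their summed signal was 7270 to 8460 in the congenic rats, 137000 in S1, 7330 in S2 and 103000 in S3.

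Markers of follicular helper T cells and of the epithelium over follicles had the same order, with S1 and S3 above the other rats for 5 of 8 and 6 of 7 measured genes, and 7 of 12 macrophage and dendritic cell markers did so too. The share over all genes was 23.5%. Smooth muscle markers had the reverse order, with S1 and S3 below the other rats for every measured gene. No colon epithelium marker had S1 and S3 above the other rats, and plasma cell markers were divided. Smooth muscle markers summed to 596000 to 676000 in the congenic rats, 189000 in S1, 711000 in S2 and 404000 in S3. Colon epithelium markers summed to 234000 to 307000 in the congenic rats and to 118000 to 143000 in all 3 S rats. Of 7 measured plasma cell markers, 2 were higher in S1 and S3 than in the other rats. These were Mzb1 (log2 difference -2.53) and Derl3 (-1.78), the 2 called lower in the congenic rats, and 0 were called higher. Sdc1 (0.77), Xbp1 (0.26) and Pigr (1.23) had positive differences, and 4 of the 7 were negative. The list summed to 17400 to 19700 in the congenic rats and 10800 to 15300 in the S rats. Its median log2 signal was above the congenic mean by 2.04 in S1, 1.47 in S2 and 1.85 in S3. The part of these cell types in the B cell values was not tested.

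**Figure D4:**
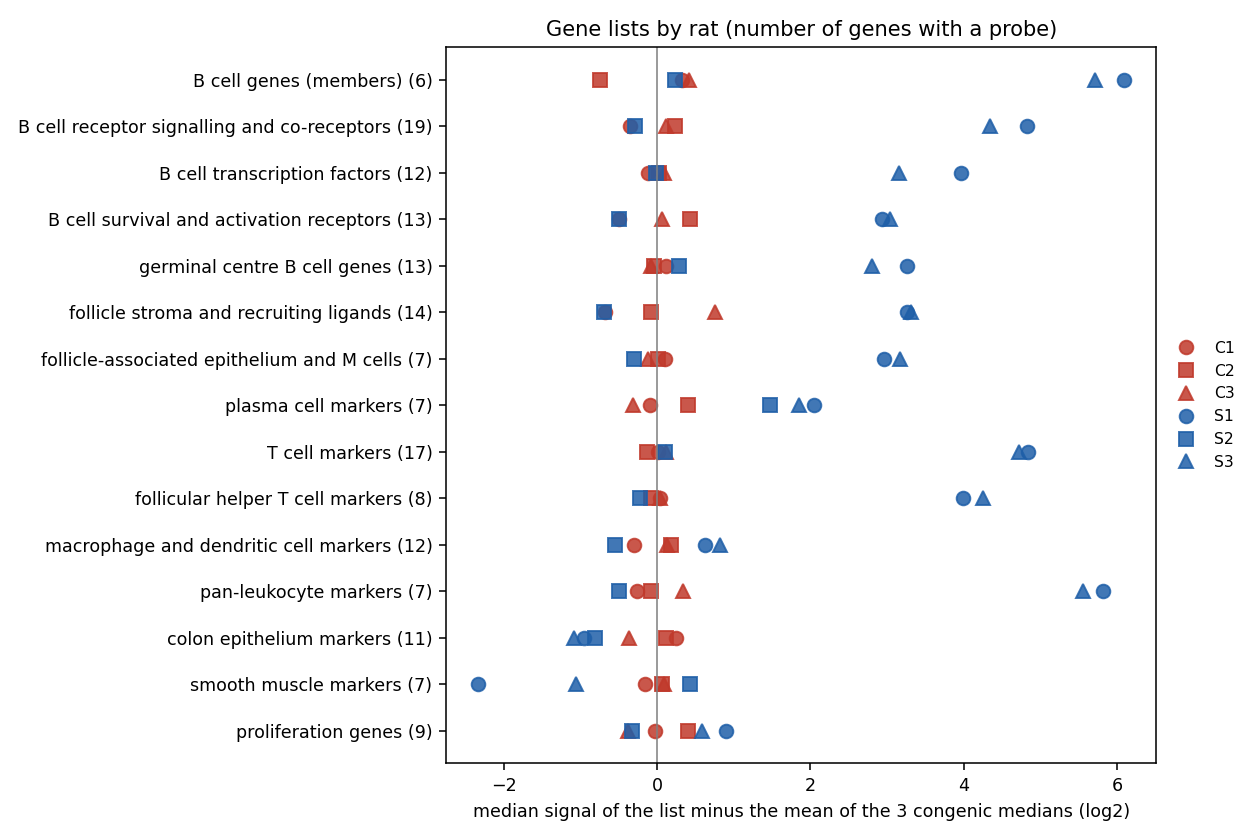
Median log2 signal of the genes of each list in each rat, as a difference from the mean of the 3 congenic rats (x axis). S1 and S3 stand at 2.93 to 4.83 for the 3 B cell lists, 4.84 and 4.72 for T cell markers and 5.81 and 5.55 for pan-leukocyte markers, whereas S2 lies between -0.49 and 0.10 for those lists.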

How the data were processed

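Colon RNA of 3 S.LEW congenic and 3 S rats was measured on 1 array per rat. The authors deposited scanner intensities from Agilent Feature Extraction 11.0.1.1 (per the submitters' processing notes), background-corrected and not normalized between arrays, and a table of quantile-normalized log2 values, kept for probes detected in at least 3 of 6 samples. The scanner intensities were used here, since the deposited log2 values cover 4 of the 6 measured genes. For the 4 genes tested, the deposited log2 values differed from those used here by at most 0.046.

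Control spots and spots marked as outliers (274 to 419 per array) were left out, log2 intensities of the 42877 spots were averaged per probe and quantile-normalized, and a probe was tested when well above background on 3 or more arrays. Median intensity was 214 to 594 per array, and precision is limited by having 6 arrays. The strain difference of each probe was fitted by limma 3.58.1 (functions lmFit and eBayes, under R 4.3.3) without covariates, and p-values were adjusted by Benjamini-Hochberg over the 23974 tested probes. Exact permutation tests were two-sided. A gene in a list was read by its brightest tested probe. The limma step was tested on simulated data.

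The 8 genes and the lists were chosen with earlier results of these data known. Named were all 8 genes, up to 4 genes of each list with the largest log2 difference (given here for the B cell, germinal center and follicle lists), the 8 genes of nearest profile, and Cr2, Bcl6 and Cxcl13 as label checks. Some results that the rule names are not reported here. Stap1, Ung, Icam1, Ltbr, Fdcsp, Il21r, Klhl6 and Mybl1 were named after their values were seen. The replicate numbers pair no rats, and the alternatives tried were another scaling, the deposited values, other filters, the methods' t-test, array weights, blocks and leaving out each rat. Coordinates are given for the RefSeq promoter windows alone (GRCr8), and none for the probes, because the array design is of another assembly. Lists of follicle-associated epithelium, follicular helper T cells, macrophages and dendritic cells, and proliferation genes were read the same way.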

Additional observations from a re-analysis of the deposited data

How the results depend on the processing

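Cd79b, Blk, Cd22, Ebf1 and Cxcr5 kept a negative log2 difference in every alternative that gave one. With normexp on the median signal it was smaller, -4.3 for Cd79b, -2.36 for Blk, -2.71 for Cd22, -0.98 for Ebf1 and -1.15 for Cxcr5, with a median of -1.06 over the tested genes. Pax5 turned positive with array weights (0.29), with the scan as a block (0.16), without C2 (0.02), without C3 (0.03) and without S2 (0.17), and was -0.18 to 0.17 with 1 rat left out. The genes called lower numbered 2 of 4, and 0 with the methods' t-test, with the scan as a block and with normexp on the median signal (offset 50, chosen after seeing the data), and 0 to 3 with 1 rat left out. With only probes well above background on all 6 arrays, Pax5 alone was left, so 0 were called and the median was -0.02. The cause was not tested for the other shifts. Probes called lower overall numbered 563, and 342 with that filter, 172 with the t-test, 225 with the scan block, 1741 with array weights, and 186 to 1725 with 1 rat left out. Those called higher numbered 775, and 514 with the t-test, 359 with normexp, 2088 with array weights, and 476 to 2399 with 1 rat left out. Array weights did not converge, and 12483 probes then had an adjusted p under 0.05. Scaling to the 75th percentile called 760 lower and 692 higher, and 1 probe had an adjusted p under 0.05. The normexp correction on the mean signal that had been planned was not run, and the median signal took its place.

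The same-numbered rats had correlations of -0.02, -0.13 and -0.06 between their deviations from the strain means, so the numbers were not taken as pairs. With the replicate number as a block, 3 of the 4 genes were called lower (Cd22 in addition, log2 difference -4.23, limma adjusted p = 0.433), with 743 probes lower and 791 higher overall.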

Other observations

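Of 12 measured macrophage and dendritic cell markers, 10 were tested, 1 was called lower in the congenic rats and 2 higher, with a median log2 difference of -0.67. The scavenger receptor Cd163 (1.86, limma adjusted p = 0.284) and the mannose receptor Mrc1 (1.03, limma adjusted p = 0.325), both of resident macrophages, were the 2 called higher. Csf1r (-1.42, limma adjusted p = 0.336) was called lower, and 6 of the 10 differences were negative. Without S2, 6 were called lower and 2 higher, against 8.27% of all genes called lower. The macrophage and dendritic cell list summed to 6780 to 9690 in the congenic rats, 21800 in S1, 5660 in S2 and 17700 in S3.

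Of the 6 tested genes of follicle-associated epithelium and M cells, the cells that pass antigen into follicles, 1 was called lower, Gp2, a bacterial receptor of M cells (at least 2.94-fold lower, limma adjusted p = 0.292). Gp2 was well above background on no congenic array, so it passed the filter through the S arrays alone, and its call is no support for a difference. Of 4 tested follicular helper T cell markers, 1 was called lower and the median was -0.20. Of the 8, 4 were well above background on S1 and S3 alone, against 3.26% of all probes on the array. Of 9 tested proliferation genes, 0 were called in either direction at an unadjusted p under 0.05 and 2-fold or more in limma, with a median of -0.35. The plasma cell receptor Tnfrsf17 was 2.28, 7.26 and 2.29 in C1, C2 and C3 and 6.35, 3.20 and 7.72 in S1, S2 and S3, so C2 lay with S1 and S3.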
